A study of Homo sapiens with 12 samples.

Results

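IFFO2 and its paralog IFFO1, which encode the intermediate filament family orphans, were followed in melanoma cells given vehicle, 1 of 2 drugs or both. IFFO2 was picked because its interaction of tretinoin with vemurafenib had the second smallest P-value of the 16740 genes that passed a filter on low counts, and IFFO1 was added as its paralog. They are 2 of the 58347 genes in the count tables, and both passed the filter. In IFFO2, tretinoin added more transcript to vemurafenib-treated cells than to vehicle-treated cells, and vemurafenib alone went with a lower level while the combination had the highest level of the 4 groups. In IFFO1, no comparison passed the test.

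The RNA came from A375 cells, an established human melanoma line that carries mutant BRAF, after 8 h of treatment. The 4 groups were DMSO vehicle, tretinoin, vemurafenib, and vemurafenib + tretinoin (the combination), each with 3 replicates and each listed at 5 µM, the vehicle included. All groups share the 1 cell line and the 1 time point. The labels only number the replicates of each group, and no source used here says whether they were separate cultures. P-values therefore measure only the spread between these samples, which may be technical.

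Intermediate filament proteins, the family of the keratins, vimentin, nestin and the nuclear lamins, share a coiled-coil rod by which they assemble into filaments of the cytoplasm or under the nuclear membrane. IFFO1 and IFFO2 contain such a rod but fall into none of the classical types, and IFFO1 has been described as a nuclear partner of lamin A and of the end-joining protein XRCC4, while the role of IFFO2 is little known. Tretinoin (all-trans retinoic acid) is the ligand of the retinoic acid receptors, which bind DNA as partners of the retinoid X receptors and regulate transcription, and vemurafenib inhibits mutant BRAF and so the ERK pathway below it.

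In the GENCODE 29 annotation (GRCh38), IFFO2 (ENSG00000169991.10) lies on the minus strand of chromosome 1 from 18904281 to 18956686 and covers 52406 bases, with 6188 exon bases in 9 blocks. IFFO1 (ENSG00000010295.19) lies on the minus strand of chromosome 12 from 6538375 to 6556083 and covers 17709 bases, with 5203 exon bases in 12 blocks. The most alike coding stretch of the genes is shown because reads from such a stretch could be assigned to the wrong paralog, with capitals marking the 1 base of 60 that differs. The IFFO2 copy is in exon 8 at chr1:18910377-18910436 and the IFFO1 copy in exon 9 of its transcript ENST00000619571.4 at chr12:6541547-6541606, both in the GRCh38 genome and both given 5′ to 3′ on the coding strand.
IFFO2 exon 8: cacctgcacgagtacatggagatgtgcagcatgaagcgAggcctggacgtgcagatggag
IFFO1 exon 9: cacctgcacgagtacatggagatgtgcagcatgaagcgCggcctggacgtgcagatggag
The longest run without a difference between the genes was 40 bases, shorter than the 150-base reads, and the longest alignment of their transcripts spanned 374 bases at 80.2% identity. A readthrough gene, AL080251.1, shares 911 exon bases with IFFO2, 14.7% of the IFFO2 exon bases, and these include all of exon 8. Union counting drops fragments that touch more than 1 gene, so the IFFO2 counts come from the other 5277 bases, exon 1 and most of the last exon. AL080251.1 had at most 1 count in any sample.

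The sequence around the IFFO2 start site is shown because it is the region in which promoter motifs of the gene could be searched. It is the RefSeq entry for GRCh38.p14, chr1:18956627-18956926 on the minus strand, from 250 bases before to 50 bases after the start, with the GC box GGGCGG in capitals.
IFFO2 promoter: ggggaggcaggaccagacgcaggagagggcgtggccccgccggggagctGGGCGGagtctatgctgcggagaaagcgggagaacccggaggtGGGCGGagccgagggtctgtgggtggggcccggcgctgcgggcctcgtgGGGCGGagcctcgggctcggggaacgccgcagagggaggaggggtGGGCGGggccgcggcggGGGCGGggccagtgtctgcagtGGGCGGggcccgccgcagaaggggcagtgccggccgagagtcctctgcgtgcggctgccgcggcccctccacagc
The window was 78.0% G and C, against a median of 58.7% over 35116 promoters of the same length, and 95.1% of them had a lower share. It held 6 GC boxes on the strand shown, whose first bases were at -201, -158, -109, -64, -47 and -25 from the start site. This motif was found on either strand in 45.0% of all promoters, and 6 or more in 2.86%. The receptor half-sites AGGTCA and AGTTCA, searched on both strands, were not among the letters of this window, and they occurred in 13.8% and 10.4% of all promoters. The AP-1 motif TGANTCA and the ETS core CCGGAA were not found there either, and 7.7% and 17.2% of promoters held them. These matches describe the letters of 1 window and not bound sites.

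The samples held 13510235 to 21534377 counts each. Melanoma markers were present in part: the proteoglycan gene CSPG4 had 388 CPM (counts scaled to library size) and the receptor kinase gene AXL 410 CPM in DMSO, the lineage factor MITF 17.6 CPM, and the pigment cell factor SOX10 had no counts in any sample. TFAP2A had 11.8 CPM in DMSO, S100B 9.08, PMEL 1.16, MLANA 0.194, DCT 0.023 and TYR 0. Union counting drops fragments that touch more than 1 gene, so a count of 0 need not mean that a gene was silent. Whether this holds for SOX10 was not tested. Of 8 leukocyte, endothelial and epithelial markers, CD3E, CD79A, EPCAM and CDH1 reached at most 9 counts in any sample. PTPRC, PECAM1, VWF and CDH5 reached at most 83, 36, 46 and 242 counts. The 8 together summed to 6.64 to 9.73 CPM in DMSO, 15.4 to 22.6 CPM in tretinoin, 6.19 to 6.23 CPM in vemurafenib and 9.43 to 10.8 CPM in the combination, and their part in the IFFO2 values was not tested. Known retinoid and ERK pathway genes moved with the drugs, with 5 of 9 tested retinoid-response genes higher under tretinoin and all 16 ERK-output genes lower under vemurafenib by the quasi-likelihood test of edgeR, adjusted by Benjamini-Hochberg. Over all genes that test called 5.68% in tretinoin against DMSO (3.48% higher and 2.2% lower) and 52.6% in vemurafenib against DMSO (26.4% higher and 26.3% lower). Against DMSO, the leukocyte gene PTPRC was higher by 1.46 on the log2 scale in tretinoin (edgeR adjusted P = 0.0121). It was higher by 1.36 in vemurafenib (edgeR adjusted P = 0.00161) and by 1.77 in the combination (edgeR adjusted P = 9.51e-05). VWF was higher by 2.13 in vemurafenib (edgeR adjusted P = 0.00132) and by 2.04 in the combination (edgeR adjusted P = 0.00185). Of the 4 other-cell-type markers that were tested, 1 was called for the interaction, against 0.806% of all genes. It was CDH5, the cadherin of endothelial junctions, which had 4.56 ± 0.53 CPM in DMSO, 13.4 ± 2.22 in tretinoin, 0.137 ± 0.074 in vemurafenib and 3.15 ± 0.60 in the combination. The interaction of CDH5 was 2.88 ± 0.45 (edgeR adjusted P = 0.00553). In bulk RNA, fewer cells that express a gene and less RNA per cell cannot be told apart.

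IFFO2 was present at moderate levels in every sample. In DMSO the 3 replicates had 712, 774 and 1007 counts, or 45.9, 52.3 and 53.1 CPM after TMM normalization (mean 50.4 ± 3.96, SD, n = 3). In tretinoin they had 1321, 1366 and 1504 counts, or 96.8, 79.4 and 82.4 CPM (86.2 ± 9.34). All 3 tretinoin samples lay above all 3 DMSO samples. In vemurafenib they had 637, 632 and 562 counts, or 33.1, 30.4 and 33.8 CPM (32.4 ± 1.78). In the combination they had 2002, 2452 and 2571 counts, or 110, 114 and 116 CPM (113 ± 3.14). The vemurafenib samples were the lowest of the series and the combination samples the highest, and no pair of neighbouring groups in the order vemurafenib, DMSO, tretinoin, combination overlapped. Tretinoin replicate 1 stood above the other tretinoin replicates but below the lowest combination sample. This order is a description, since IFFO2 was chosen on these samples, and the share of all genes whose groups separate likewise is not given here.

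**Figure D1:**
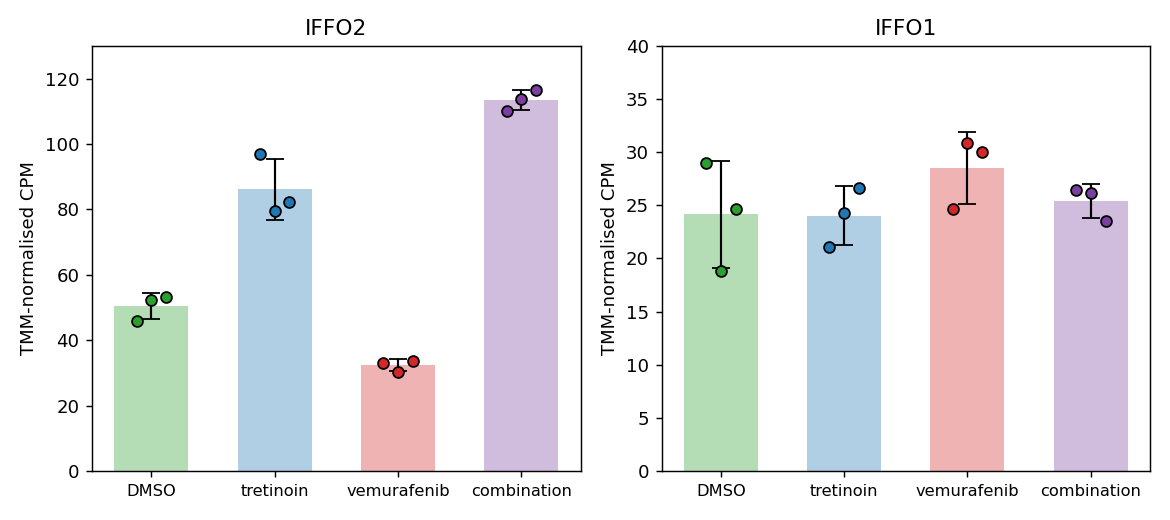
Level of IFFO2 (left) and IFFO1 (right) in TMM-normalised CPM in the 4 groups; points are the 3 samples of a group, bars their mean and error bars 1 SD, and the vertical scales differ. IFFO2 runs from 32.4 CPM in vemurafenib to 113 CPM in the combination with no overlap between groups, and the IFFO1 groups overlap.

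On the fitted log2 scale, IFFO2 was 0.77 ± 0.08 (SE) higher in tretinoin than in DMSO, a 1.71-fold difference. It was 0.64 ± 0.08 (SE) on that scale below DMSO in vemurafenib, at 0.642 times the DMSO level. Vemurafenib therefore went with a lower IFFO2 level in cells without tretinoin. In cells with tretinoin the sign was the other way, with the combination 0.40 ± 0.08 above tretinoin on the log2 scale (1.32-fold). The tretinoin difference was 1.81 ± 0.08 in the presence of vemurafenib, 3.50-fold, and the combination stood 1.17 ± 0.08 above DMSO, 2.25-fold. The comparisons share the DMSO, tretinoin and vemurafenib samples and are not independent of each other.

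The interaction, the tretinoin difference with vemurafenib minus that without it, was 1.04 ± 0.12 on the log2 scale for IFFO2 (95% interval 0.79 to 1.28), so tretinoin multiplied the level by 2.05 times more in the presence of vemurafenib. If the single-drug folds multiplied, 55.4 CPM would be reached in the combination, and the measured mean was 2.05 times that. If the single-drug differences in CPM added up, 68.2 CPM would be reached, and the measured mean was 1.66 times that. Tretinoin went with 35.8 CPM more IFFO2 without vemurafenib and 81.1 CPM more with it. The IFFO2 interaction stayed between 0.98 and 1.13 when any 1 of the 12 samples was left out. IFFO2 was chosen for this term, so its size, its interval and this range are a description and no test. For the same reason the term may be overestimated.

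**Figure D2:**
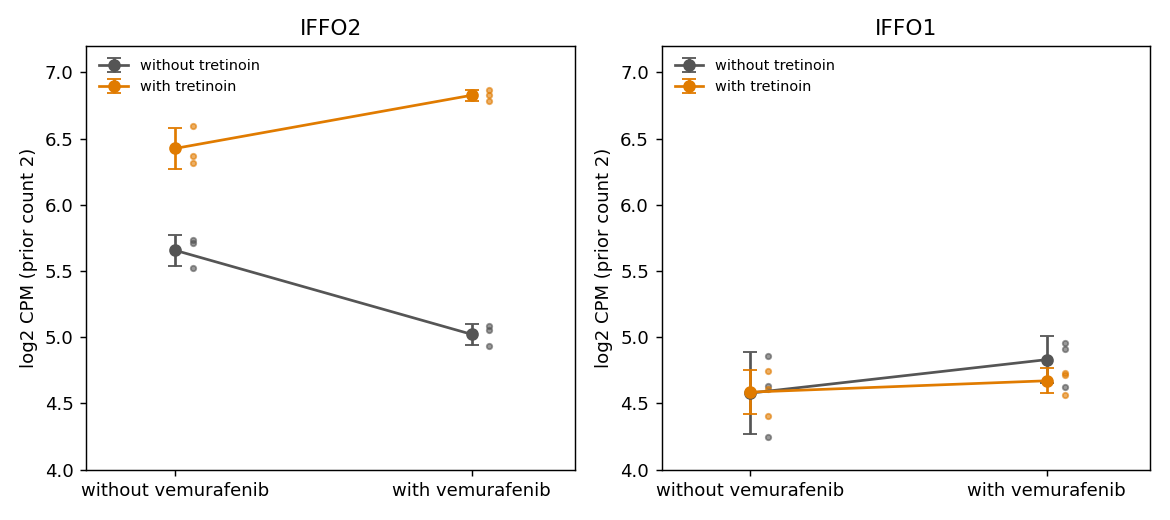
Level of IFFO2 (left) and IFFO1 (right) in log2 CPM with a prior count of 2, without and with vemurafenib, for cells without (grey) and with (orange) tretinoin; large points are group means of 3 samples, error bars 1 SD and small points the samples. The IFFO2 lines diverge, with vemurafenib below DMSO and the combination above tretinoin, while the IFFO1 lines overlap within their errors.

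Interaction calls were rare over the transcriptome, at 135 of 16740 genes (0.806%), 64 with a positive (0.382%) and 71 with a negative term (0.424%). IFFO2 followed PRRX1, a homeobox gene with an interaction of -1.23 ± 0.13, and came before ADAM19, a metalloprotease gene with -1.68 ± 0.19. FOXC1, a forkhead factor, was at 0.85 ± 0.10, CCN2, a secreted matrix protein and YAP target, at 1.04 ± 0.13, and SLITRK6, a neuronal transmembrane protein, at -0.89 ± 0.12 in the sixth place. Of the 6 leading genes, IFFO2, FOXC1 and CCN2 had a positive term. These genes are ordered by the P-value that chose IFFO2, and the order is no further test of it.

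The replicates of IFFO2 lay close together. The pooled within-group SD of its log2 CPM was 0.11, against a median of 0.15 over all genes tested, and 71.3% of genes had a larger SD. A small interaction P favours a gene with a small spread, so this SD is a description of a gene chosen in part through it. The coefficient of variation was 2.77% in the combination, 5.48% in vemurafenib, 7.86% in DMSO and 10.8% in tretinoin. Its mean level was above that of 78.7% of the genes tested.

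The IFFO1 levels overlapped between the groups. In DMSO its replicates had 449, 279 and 467 counts, or 28.9, 18.8 and 24.6 CPM (24.1 ± 5.06, SD, n = 3), and in tretinoin 288, 417 and 487 counts, or 21.1, 24.2 and 26.7 CPM (24.0 ± 2.79). In vemurafenib it had 474, 642 and 499 counts, or 24.6, 30.9 and 30.0 CPM (28.5 ± 3.39), and in the combination 481, 564 and 520 counts, or 26.5, 26.2 and 23.5 CPM (25.4 ± 1.62). The lowest level was in DMSO replicate 2 and the highest in vemurafenib replicate 2, while DMSO replicate 1 lay above all 3 combination samples. The pooled SD of IFFO1 was 0.20 on the log2 scale.

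None of the 6 comparisons was called for IFFO1 by the quasi-likelihood test of edgeR, adjusted by Benjamini-Hochberg over all genes, none had an unadjusted P below 0.05, and DESeq2 called none either. The tretinoin difference of IFFO1 was -0.01 ± 0.13 on the log2 scale (95% interval -0.28 to 0.27, adjusted P = 0.988). The vemurafenib difference was 0.24 ± 0.13 (-0.04 to 0.51, unadjusted P = 0.0859, adjusted P = 0.136), and the combination differed from DMSO by 0.07 ± 0.13 (-0.20 to 0.34, adjusted P = 0.675). Without DMSO replicate 1, the sample with the highest IFFO1 level in that group, the vemurafenib difference was 0.38 with an adjusted P of 0.029. The combination differed from vemurafenib by -0.17 ± 0.13 (-0.44 to 0.10, adjusted P = 0.653) and from tretinoin by 0.08 ± 0.13 (-0.20 to 0.35, adjusted P = 0.658). The IFFO1 interaction was -0.16 ± 0.18 (-0.55 to 0.23, adjusted P = 0.703). Its combination level was 0.896 times that expected from multiplied single-drug folds.

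**Figure D3:**
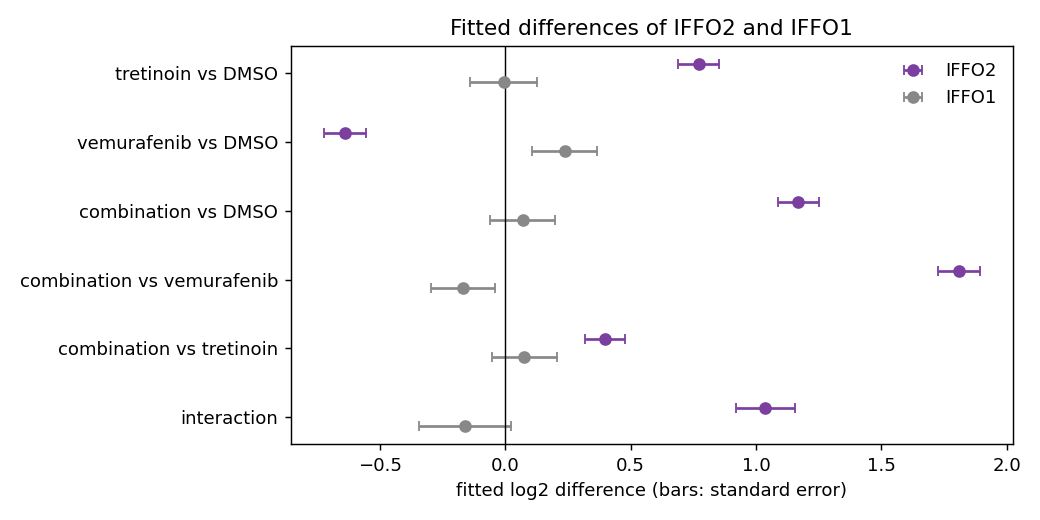
Fitted log2 differences of IFFO2 (purple) and IFFO1 (grey) in 6 comparisons of 12 samples; points are edgeR estimates and bars 1 standard error. IFFO2 lies at -0.64 for vemurafenib against DMSO and at 1.81 for the combination against vemurafenib, and the IFFO1 points lie between -0.17 and 0.24.

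GAPDH, the glycolytic enzyme gene, ends 1 base before the annotated end of IFFO1 on the opposite strand, and the counting ignored strand. GAPDH had 2722 CPM in DMSO and 2434 CPM in the combination, and by edgeR's quasi-likelihood test its differences from DMSO were -0.06 in tretinoin (adjusted P = 0.709), -0.18 in vemurafenib (adjusted P = 0.0853) and -0.16 in the combination (adjusted P = 0.117). Whether GAPDH fragments enter the IFFO1 count was not tested. An antisense gene inside IFFO1, AC006064.1, shares none of its exon bases and had at most 3 counts.

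Per kilobase of all annotated exon bases, IFFO2 had the higher mean of the paralogs in 3 of the 4 groups. In CPM per kilobase IFFO2 was at 8.15 ± 0.64 in DMSO, 13.9 ± 1.51 in tretinoin, 5.24 ± 0.29 in vemurafenib and 18.3 ± 0.51 in the combination (SD, n = 3). IFFO1 was at 4.64 ± 0.97, 4.61 ± 0.54, 5.48 ± 0.65 and 4.88 ± 0.31 in the same groups. The ratio of IFFO2 to IFFO1 per kilobase was 1.33, 2.33 and 1.81 in the DMSO samples and 1.13, 0.828 and 0.947 in the vemurafenib samples, so the vemurafenib ratios lay on both sides of 1. In tretinoin the ratio was 3.86, 2.75 and 2.60, and in the combination 3.50, 3.66 and 4.16, and the tretinoin and combination samples overlapped. With IFFO1 taken per kilobase of its longest transcript, the mean ratio was 1.09 in DMSO, 1.83 in tretinoin, 0.577 in vemurafenib and 2.25 in the combination. The DMSO samples then lay on both sides of 1, at 0.795, 1.39 and 1.08. With IFFO2 taken per kilobase of its 5277 counted bases, IFFO2 was at 6.14 in vemurafenib, above the 5.48 of IFFO1. Which paralog is the more abundant in vemurafenib thus depends on the length used.

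The genes whose log2 CPM was most alike to IFFO2 over the 12 samples were SMAD3 (Pearson r = 0.959), TNFAIP2 (0.952), NRP2 (0.948), SLC3A2 (0.947) and HOXB9 (0.943). The 12 samples share 4 treatments, and only SMAD3 and TNFAIP2 of the 16739 other genes had an r of at least 0.95. SMAD3, the signal transducer of TGF-beta receptors, went from 128 ± 10.2 CPM in DMSO to 216 ± 17.6 in tretinoin, 78.0 ± 2.08 in vemurafenib and 204 ± 11.8 in the combination. SMAD3 thus had its lowest level in vemurafenib, as did IFFO2, but its combination mean was within 1 SD of its tretinoin mean. NRP2, a coreceptor of semaphorins and VEGF, had 54.7 ± 2.39, 115 ± 10.0, 49.7 ± 2.92 and 122 ± 6.27 CPM in the same order. TNFAIP2, a gene induced by tumour necrosis factor, had 93.1 ± 7.13, 115 ± 8.48, 66.6 ± 0.59 and 117 ± 5.87 CPM. SLC3A2, the heavy chain of amino acid transporters, and the homeobox gene HOXB9 had smaller spans, from 964 to 1346 CPM and from 19.8 to 26.4 CPM. The interaction of SMAD3 was 0.63 ± 0.11 and that of TNFAIP2 0.51 on the log2 scale, below the 1.04 of IFFO2, and none of these values was tested for likeness since the genes were chosen for it.

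**Figure D4:**
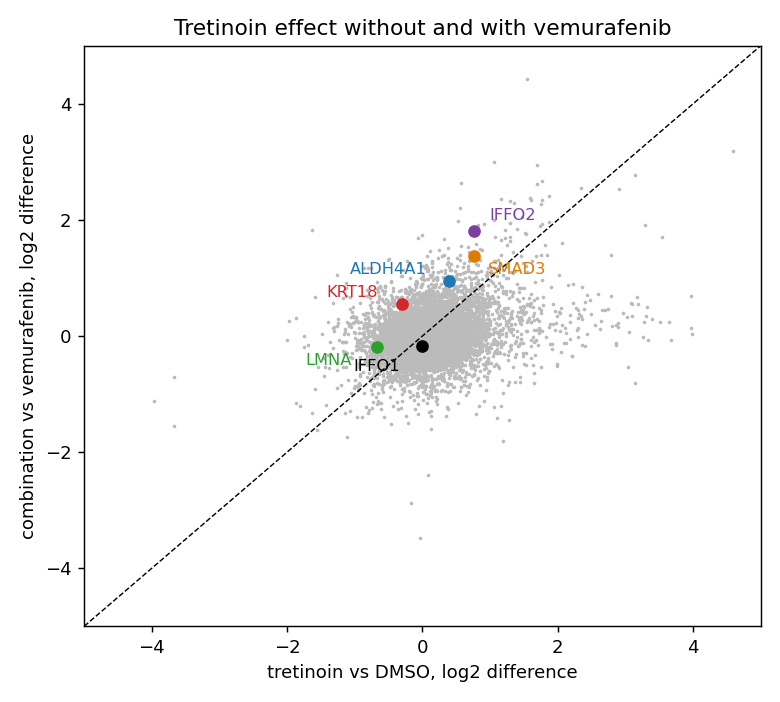
Tretinoin effect of each of the 16740 genes without vemurafenib (horizontal axis, tretinoin against DMSO) and with it (vertical axis, combination against vemurafenib), in fitted log2 differences; the dashed line marks equal effects and 3 genes lie outside the axes. IFFO2 (0.77 and 1.81) and SMAD3 (0.76 and 1.39) lie above the line, and IFFO1 lies near the origin.

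The genes most alike to IFFO1 were SNHG4, a small nucleolar RNA host gene (r = 0.966), CENPE, a mitotic kinesin (0.917), AHSA2P (0.901), the embryonic myosin MYH3 (0.872) and TMEM132A (0.872). CENPE had 73.6 ± 6.35 CPM in DMSO, 74.9 ± 3.70 in tretinoin, 84.7 ± 5.09 in vemurafenib and 79.4 ± 4.57 in the combination, with its highest mean in vemurafenib, as in IFFO1.

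Known retinoid-response genes give levels to set beside IFFO2. DHRS3, a retinaldehyde reductase, rose by 2.91 on the log2 scale in tretinoin (edgeR adjusted P = 1.9e-12) and by 2.54 in the combination against vemurafenib (edgeR adjusted P = 5.35e-12), and its interaction was -0.37 (edgeR adjusted P = 0.18). STRA6, a retinol transporter, was lower in vemurafenib and higher in tretinoin, as IFFO2 was, with log2 differences of -0.72 (edgeR adjusted P = 3.87e-06) and 1.34 (edgeR adjusted P = 5.83e-08). The tretinoin difference of STRA6 was 1.45 with vemurafenib, and its interaction was 0.12 (edgeR adjusted P = 0.684). Of the 9 tested genes of this kind, 5 were called higher in the combination than in vemurafenib, against 2.27% of all genes, and they were CYP26B1, RARB, DHRS3, STRA6 and CRABP2.

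Of 70 classical intermediate filament genes, keratins included, 30 passed the filter. In tretinoin against DMSO, 0 of the 30 were called higher and 5 lower by edgeR's quasi-likelihood test (16.7%, against 5.68% of all genes, 3.48% higher and 2.2% lower), with a median log2 difference of -0.23, against 0.01 over all genes. Those 5 were LMNA, KRT6B and the stress keratins KRT6A (-1.75), KRT16 (-1.86) and KRT17 (-1.56), the last 3 with log2 differences in parentheses. The levels of these 3 were low, from 5.05 CPM in DMSO to 1.51 in tretinoin for KRT6A, 2.78 to 0.744 for KRT16 and 2.61 to 0.908 for KRT17. With DMSO replicate 2 or DMSO replicate 3 left out 3 were called, and 2 with a filter of at least 10 counts in every sample, which tests fewer genes. KRT17 was not called without DMSO replicate 2 or 3 or tretinoin replicate 3, and KRT6B without DMSO replicate 2 or 3 or tretinoin replicate 2. In vemurafenib 5 rose and 14 fell (63.3%, against 52.6%, of which 26.3% lower), with a median of -0.27. In the combination against DMSO 4 rose and 14 fell (60%, against 53.6% of all genes, 27.1% higher and 26.5% lower), with a median of -0.44. Against vemurafenib, the combination had 2 higher and 4 lower (20%, against 4.47% of all genes, 2.27% higher and 2.2% lower), with KRT8 (0.46) and KRT18 higher and NEFL (-0.48), KRT9 (-0.73), KRT16 (-1.16) and KRT17 (-1.61) lower. KRT17 was not called with vemurafenib replicate 1, combination replicate 2 or combination replicate 3 left out, and KRT8 without vemurafenib replicate 1 or 2. In vemurafenib against DMSO, NEFL (0.73), KRT9 (1.89) and KRT16 (1.51) were called higher, and KRT17 (-0.22) was not called. Against tretinoin the combination had 5 higher and 10 lower (50%, against 49.1% of all genes, 24.1% higher and 25% lower).

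LMNA, which encodes lamins A and C, had 3102 ± 278 CPM in DMSO, 1951 ± 435 in tretinoin, 2007 ± 145 in vemurafenib and 1763 ± 108 in the combination. By edgeR's quasi-likelihood test LMNA fell by 0.67 on the log2 scale in tretinoin (SE 0.12, adjusted P = 0.00359, but 0.0649 with only those 2 groups in the fit), by 0.63 in vemurafenib (adjusted P = 0.00041) and by 0.82 in the combination (adjusted P = 3.11e-05). The B-type lamins LMNB1 and LMNB2 fell by 0.43 (adjusted P = 0.00047) and 0.47 (adjusted P = 1.66e-05) in the combination, and NES, the nestin gene of progenitor cells, fell by 0.78 (adjusted P = 2.8e-05) by the same edgeR test. In vemurafenib alone LMNB1 fell by 0.37 (edgeR adjusted P = 0.00188), LMNB2 by 0.32 (edgeR adjusted P = 0.000856) and NES by 0.80 (edgeR adjusted P = 2.13e-05). VIM, the vimentin of mesenchymal cells, had 972 ± 47.2 CPM in DMSO and 891 ± 75.3 CPM in the combination, a difference of -0.13 (edgeR adjusted P = 0.191). KRT80, an epithelial keratin, fell by 1.12 in the combination (edgeR adjusted P = 1.11e-08) and by 1.03 in vemurafenib alone (edgeR adjusted P = 3.61e-08). LMNB1, LMNB2, NES and KRT80 were not called in the combination against vemurafenib.

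KRT18, the simple epithelial keratin that pairs with KRT8, had the smallest interaction P-value of the 30 filament genes. It had 705 ± 86.9 CPM in DMSO, 572 ± 91.1 in tretinoin, 195 ± 16.1 in vemurafenib and 284 ± 20.6 in the combination. KRT18 fell by 1.85 on the log2 scale in vemurafenib (edgeR adjusted P = 4.15e-10), and the combination stood 0.55 ± 0.11 above vemurafenib (edgeR adjusted P = 0.00549). Its interaction was 0.85 ± 0.16 (edgeR adjusted P = 0.012), and without DMSO replicate 2, vemurafenib replicate 1 or vemurafenib replicate 2 the adjusted P was 0.052, 0.0584 and 0.0625. KRT6B, a keratin of stressed epithelium, had 11.2 CPM in DMSO, 7.6 in tretinoin, 5.35 in vemurafenib and 6.48 in the combination. It was the only other member of the 30 called for the interaction, at 0.83 ± 0.19 (edgeR adjusted P = 0.0443). The adjusted P of KRT6B was 0.0565 to 0.149 when DMSO replicate 2 or 3, tretinoin replicate 2 or 3, vemurafenib replicate 2 or 3 or any 1 combination replicate was left out, and 0.096 with a term for the replicate number. Those 2 calls are 6.67% of the 30 genes, against 0.806% of all genes. KRT18 and KRT6B have near-identical copies or pseudogenes, and their counts are uncertain to that extent. The annotated spans of KRT8 and KRT18 also overlap on opposite strands. How many of their fragments the counting dropped for touching both genes was not tested.

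**Figure D5:**
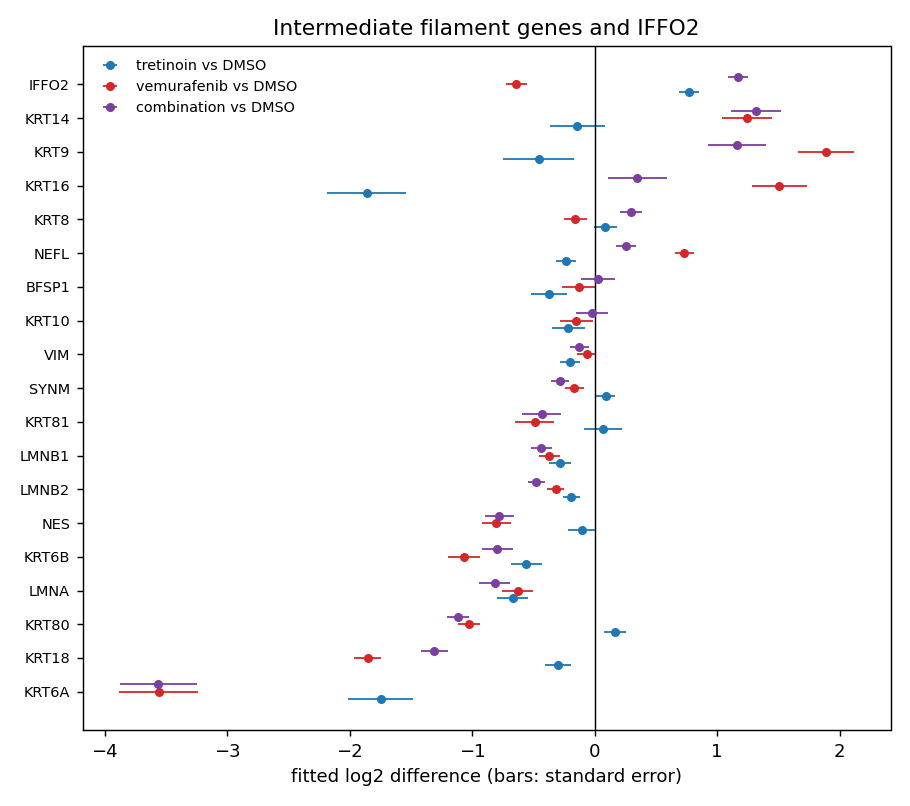
Fitted log2 differences from DMSO in tretinoin (blue), vemurafenib (red) and the combination (purple) for IFFO2 and the 18 intermediate filament genes with a highest group mean of at least 5 CPM; points are edgeR estimates and bars 1 standard error. IFFO2 is at 0.77, -0.64 and 1.17, and LMNA is below 0 under each drug.

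The partners described for IFFO1 were read from the same fit. Of 20 tested nuclear envelope genes, edgeR called 0 in tretinoin against DMSO (3 at an unadjusted P below 0.05 and 0 by DESeq2, against 5.68% of all genes), and in the combination against DMSO 3 rose and 10 fell (65%, against 53.6% of all genes). In vemurafenib against DMSO 3 rose and 9 fell (60%, against 52.6% of all genes). SYNE3, a nesprin that links the nuclear membrane to keratin filaments, fell by 1.89 in the combination (edgeR adjusted P = 4.46e-10), and SYNE2, a giant nesprin, rose by 0.88 (edgeR adjusted P = 2.8e-06). In vemurafenib alone SYNE3 was at -1.41 (edgeR adjusted P = 1.35e-08) and SYNE2 at 0.855 (edgeR adjusted P = 4.24e-06). The combination differed from vemurafenib by -0.48 in SYNE3 (edgeR adjusted P = 0.034, up to 0.178 over the alternatives) and by 0.02 in SYNE2 (edgeR adjusted P = 0.969). Of 13 tested end-joining genes, 3 rose and 4 fell in the combination (53.8%, against 53.6% of all genes). In vemurafenib against DMSO also 3 end-joining genes rose and 4 fell. XRCC4, the scaffold of DNA ligase IV, had 12.5 ± 0.77 CPM in DMSO and 10.8 ± 0.38 in the combination, a difference of -0.22 (edgeR adjusted P = 0.109), and LIG4 fell by 0.42 (edgeR adjusted P = 0.000361). In vemurafenib alone LIG4 fell by 0.39 (edgeR adjusted P = 0.000743). EdgeR and DESeq2 called 0 nuclear envelope and 0 end-joining genes for the interaction, with 2 of each list at an unadjusted P below 0.05 in edgeR, and over all genes edgeR called 0.806%, so counts of 0 in lists of this size are near the background.

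ALDH4A1, a mitochondrial enzyme of proline breakdown, is the nearest tested gene to IFFO2, 1500 bases beyond its 3′ end on the same strand. The annotated span of the readthrough gene AL080251.1, chr1:18849273-18921121, covers all of ALDH4A1. Whether the counting dropped ALDH4A1 fragments for this, or transcripts run on from IFFO2 into ALDH4A1, was not tested. ALDH4A1 had 10.9 ± 0.96 CPM in DMSO, 14.4 ± 3.07 in tretinoin, 15.0 ± 0.44 in vemurafenib and 28.96 ± 3.21 in the combination. By edgeR's quasi-likelihood test ALDH4A1 rose by 1.42 in the combination against DMSO (adjusted P = 5.3e-08) and by 0.95 against vemurafenib (adjusted P = 6.2e-05). In tretinoin it was at 0.39 (edgeR adjusted P = 0.0987), and in vemurafenib it rose by 0.46 (edgeR adjusted P = 0.00718), unlike IFFO2, which was lower there. The interaction of ALDH4A1 was 0.56 (edgeR adjusted P = 0.17), and without tretinoin replicate 1 it was 0.74 with an adjusted P of 0.0098. On the other side, UBR4, a ubiquitin ligase gene, lies 117820 bases away and rose by 0.39 in the combination (edgeR adjusted P = 0.000739). In vemurafenib alone UBR4 rose by 0.34 (edgeR adjusted P = 0.00254).

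Of the 5 nearest tested genes on each side of IFFO2, 1 rose in the combination against vemurafenib (10%, against 4.47% of all genes), which was ALDH4A1, and edgeR and DESeq2 called 0 for the interaction (2 at an unadjusted P below 0.05), near the 0.806% of all genes. In the combination against DMSO 3 of these 10 rose and 3 fell (60%, against 53.6%), and in vemurafenib against DMSO also 3 rose and 3 fell (60%, against 52.6%). Around IFFO1, 6 of the 10 nearest tested genes rose and 1 fell in the combination against DMSO (70%, against 53.6%), and both tools called 0 for the interaction (2 at an unadjusted P below 0.05), again near 0.806%. LPAR5, a lysophosphatidic acid receptor gene, was the 1 of the 10 that was called in the combination against vemurafenib, where it fell by 1.18. In vemurafenib against DMSO 5 of the 10 genes around IFFO1 rose and 1 fell (60%, against 52.6%). NOP2, a ribosomal RNA methyltransferase gene 780 bases from IFFO1, fell by 0.78 in the combination (edgeR adjusted P = 3.37e-08) and by 0.82 in vemurafenib alone (edgeR adjusted P = 2.04e-08).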

How the data were processed

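RNA was sequenced from A375 cells in 4 groups of 3 replicates, taken from the sample labels. The authors sequenced paired 150-base reads of poly(A) RNA, aligned them with STAR 2.5.3a to GRCh38.p10 with GENCODE 27 genes, and counted fragments per gene in union mode with the strand ignored. They deposited raw counts, not normalized, so reads on either strand and in regions of 1 gene only enter a value.

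Positions came from GENCODE 29, which matched 58081 of the 58347 genes, 40655 of them with a symbol. After filterByExpr and TMM scaling, edgeR 4.0.16 under R 4.3.3 fitted 1 quasi-likelihood model to the 12 samples, with group as its only term, and the Benjamini-Hochberg adjustment ran over the 16740 genes tested, at a threshold of 0.05. The interaction is, in log2, the combination minus vemurafenib difference less the tretinoin minus DMSO difference. A standard error is the size of the log2 difference divided by the square root of F. The model was tested on simulated data, where the interaction test recovered 22 of 50 changed genes at 1.5-fold and 35 of 50 at 2-fold. At 3-fold and 4-fold it recovered 38 and 43 of 50, with 6 false calls in all. An interaction that was not called can therefore be present. Sequences were aligned with blastn 2.17.0. IFFO2 has no P-value because it was chosen on the interaction of these samples.

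The members and gene lists were chosen with earlier results of these data known. The genes named are, in each list, the 4 members called in the combination against DMSO with the smallest P or some of them, LMNA, LMNB1, LMNB2, VIM, NES and XRCC4, list members called for the interaction, the 5 genes most correlated with each paralog, the interaction ranks around IFFO2, and the nearest tested genes. GAPDH, marker genes, retinoid-response genes and the members of small counts (such as KRT16, KRT17, KRT8 and LPAR5) were named after their values were seen. Alternatives were DESeq2 1.42.0, other scalings and filters, a replicate block, the 2 groups alone, and each sample left out. The per-kilobase level over unshared exon bases was added after seeing the data.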

Additional observations from a re-analysis of the deposited data

Results flagged for a closer look

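For 3 genes of the lists, other than IFFO2, the tretinoin effect differed with and without vemurafenib by the interaction term in edgeR, adjusted by Benjamini-Hochberg. For CDH5 the term was 2.88 on the log2 scale (SE 0.45, adjusted P = 0.00553), and it stayed between 2.58 and 3.26 with any 1 sample left out. All 3 vemurafenib samples had 0.060 to 0.208 CPM of CDH5, so the term rests on few counts there. For KRT18 it was 0.85 (SE 0.16, adjusted P = 0.012) and for KRT6B 0.83 (SE 0.19, adjusted P = 0.0443), both positive as in IFFO2. Unlike IFFO2, KRT18 and KRT6B were lower in the combination than in DMSO, by 1.31 and 0.79. KRT6B was also lower in tretinoin, by 0.56, and its combination differed from vemurafenib by 0.27 (edgeR adjusted P = 0.383). The adjusted P of KRT18 was 0.0625 at most over the alternatives, and that of KRT6B 0.149 at most.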

How the results depend on the processing

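IFFO2 kept its direction in every comparison under every alternative run. With any 1 sample left out, its log2 difference was 0.68 to 0.83 for tretinoin, -0.71 to -0.60 for vemurafenib, 1.10 to 1.202 for the combination against DMSO, 1.76 to 1.84 against vemurafenib and 0.34 to 0.49 against tretinoin, and its interaction 0.98 to 1.13. Scaling by total counts alone moved IFFO2 to -0.44 in vemurafenib, 1.33 in the combination and 0.93 for the interaction, and that scaling moved the median of all genes from 0.02 to 0.21 in vemurafenib, from 0.03 to 0.19 in the combination and from -0.01 to -0.11 in the interaction. The share of higher calls under it was 71.4% in vemurafenib, 81.3% in tretinoin and 21.4% in the interaction.

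The IFFO1 tretinoin difference, -0.01, was 0.06 with total counts alone, 0.004 with at least 10 counts in every sample and 0.002 with only the 2 groups, and -0.15 to 0.14 with 1 sample left out. In vemurafenib IFFO1 was 0.43 with total counts alone (edgeR adjusted P = 0.0151) and 0.09 to 0.38 with 1 sample left out, passing the threshold without DMSO replicate 1. Its combination difference was -0.075 to 0.21 against DMSO, negative without DMSO replicate 2, and -0.008 to 0.15 against tretinoin, negative without tretinoin replicate 1.

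Interaction calls numbered 276 by DESeq2, 610 with no count filter, 75 with the replicate block and 60 to 265 with 1 sample left out (60 without DMSO replicate 2, 71 and 64 without vemurafenib replicates 1 and 2, 88, 65 and 88 without combination replicates 1, 2 and 3, 265 without tretinoin replicate 1). Tretinoin calls, 951, numbered 1540 with no filter, 305 with only the 2 groups and 379 to 1367 with 1 sample left out (379 without DMSO replicate 2, 619 without tretinoin replicate 2). Calls for the combination against vemurafenib, 749, numbered 1269 with only the 2 groups and 460 to 1172 with 1 sample left out (1172 without tretinoin replicate 1, 482 and 460 without vemurafenib replicates 1 and 2, 460 and 474 without combination replicates 2 and 3). The cause was not tested.

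Deviations from the group means were on average no more alike between samples of equal replicate number (mean correlation -0.031 over 18 pairs, against 0.015 over 36 pairs of different numbers). Deviations sum to 0 within a group, which ties these means to each other, so they cannot exclude that samples of equal number were handled together. With the replicate block, the IFFO2 interaction was 1.04 and the IFFO1 interaction -0.16. At 13510235 to 21534377 counts, genes with few counts, such as CDH5 under vemurafenib, have wide errors.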
